A study of Mus musculus with 8 samples.

Results

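The report covers the transcripts of the enzymes that write, copy, oxidise and read DNA methylation in mouse helper T cells: the oxidising enzymes Tet1, Tet2 and Tet3, the DNA methyltransferases Dnmt1, Dnmt3a and Dnmt3b, the Dnmt1 partner Uhrf1, the glycosylases Tdg and Mbd4, and the methyl-CpG binding protein Mbd2. Their probesets were chosen by annotation: each array probeset that the platform annotation pairs with 1 gene symbol equal to a member was kept. That gave 12 probesets of 21789 with 1 symbol and 35556 in all. Tet1 had 3 probesets, Tet3 had 2, and Tet2, Dnmt1, Dnmt3a, Dnmt3b, Uhrf1, Mbd2 and Mbd4 had 1 each. Tdg had none of its own: its 4 probesets are also annotated to the pseudogene Tdg-ps2, so Tdg was not analysed here.

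The study measured total RNA on 8 Affymetrix arrays, 2 per group. CD4+CD25- naive T cells (CD62L high, CD44 low) came from lymph nodes and spleens of wild-type or Tet2-/- C57BL/6 animals and were cultured under Th1 or Th17 conditions. All 4 groups were activated with 1 µg/ml antibody to CD3 and 1 µg/ml antibody to CD28 and received 5 µg/ml antibody to IL-4. The wild-type Th1 and Tet2-/- Th1 groups also had 10 ng/ml IL-12 and 30 U/ml IL-2. The wild-type Th17 and Tet2-/- Th17 groups had 10 ng/ml IL-6, 5 µg/ml antibody to interferon-γ and 0.5 ng/ml TGF-β1, and the use of IL-1β and IL-23 could not be read from the labels. The labels do not give the deleted part of Tet2, whether the deletion was confined to T cells, the age of the mice or the days in culture. The arrays of a group are named biological replicates, but nothing says which animals they came from, so p-values measure the spread between these arrays.

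DNA methylation sits on the cytosine of CpG pairs. Dnmt3a and Dnmt3b place it on unmethylated DNA, and Dnmt1, brought to half-methylated DNA by Uhrf1, copies it to the new strand after replication. Tet enzymes oxidise methylcytosine, after which the mark is lost by dilution through cell division or by excision, in which Tdg removes the more oxidised forms. Tet1 and Tet3 carry a CXXC domain that binds CpG-rich DNA, whereas Tet2 lacks it. In helper T cells this machinery is known for its part in opening and silencing the cytokine genes of a lineage.

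Tet1, Tet2 and Mbd4 held the members' calls within a genotype, all between Th17 and Th1 cells, and Tet3 is the member of the Tet family that did not pass. The 250 bases before a RefSeq transcription start of these 4 genes are shown for that reason (build GRCm38.p6, all on the minus strand, written 5′ to 3′ along the gene, with CpG pairs in capitals):
Tet1, chr10:62887325-62887574: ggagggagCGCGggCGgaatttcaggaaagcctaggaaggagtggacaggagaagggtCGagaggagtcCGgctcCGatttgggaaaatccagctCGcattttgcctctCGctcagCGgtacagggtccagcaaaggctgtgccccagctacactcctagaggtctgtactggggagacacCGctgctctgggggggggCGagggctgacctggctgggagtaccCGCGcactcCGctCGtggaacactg
Tet2, chr3:133544391-133544640: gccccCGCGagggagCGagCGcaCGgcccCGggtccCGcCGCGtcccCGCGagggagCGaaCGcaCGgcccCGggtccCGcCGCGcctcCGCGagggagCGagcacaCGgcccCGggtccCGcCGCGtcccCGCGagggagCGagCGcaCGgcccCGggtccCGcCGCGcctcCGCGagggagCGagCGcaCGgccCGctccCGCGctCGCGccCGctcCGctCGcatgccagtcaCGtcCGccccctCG
Tet3, chr6:83441679-83441928: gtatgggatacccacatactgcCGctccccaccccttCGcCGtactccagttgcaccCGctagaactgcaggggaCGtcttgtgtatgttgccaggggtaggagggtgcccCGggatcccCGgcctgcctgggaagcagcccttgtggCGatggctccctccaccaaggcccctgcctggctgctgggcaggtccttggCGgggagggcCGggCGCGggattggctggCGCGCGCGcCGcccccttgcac
Mbd4, chr6:115853342-115853591: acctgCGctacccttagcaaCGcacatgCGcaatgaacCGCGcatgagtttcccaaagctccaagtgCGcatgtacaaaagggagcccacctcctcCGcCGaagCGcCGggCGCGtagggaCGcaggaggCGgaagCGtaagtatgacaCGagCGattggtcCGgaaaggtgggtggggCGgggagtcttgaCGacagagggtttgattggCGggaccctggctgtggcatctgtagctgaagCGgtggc

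The promoter table held 1 start for each of these 4 genes. Tet2 had 51 CpG pairs in its window, as many as 0.067% of the 32841 windows of the same length. The window repeats itself at a shift of 42 bases, where 162 of 208 compared bases were identical, and CCGCGAGGGAGCGA occurs 5 times in it. Tet1 had 15 CpG pairs, Tet3 had 17 and Mbd4 had 22, against a median of 6 over all windows, and at least as many were found in 27.3%, 23.5% and 14.8% of windows. Of 5 motifs searched on both strands beside CpG, AGGTCA (the core element of ROR factors, found in 14% of windows) occurred 1 time, in the Tet1 window. TTCNNNGAA (the STAT element, 7.02% of windows), AGGTGTGA (a T-box element, 1.12%) and the E2F elements TTTGGCGC (0.417%) and TTTCCCGC (0.895%), which overlap CpG, occurred in none of the 4. These matches describe letters only, and DNA methylation itself was not measured on these arrays.

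All 6 measured pan-T-cell markers lay above the median array value in each group, with a mean of 10.7 to 11.0 log2 units. The Th17 genes Il17a, Il17f, Il23r and Ccr6 all lay above the median array value in the Th17 groups, and the mean of the 4 read 8.94 to 9.44 log2 units on Th17 arrays and 5.83 to 6.10 on Th1 arrays. The mean of the Th1 genes Tbx21, Ifng, Il12rb2, Cxcr3 and Il18r1 read 9.64 to 10.0 on Th1 arrays and 7.97 to 8.08 on Th17 arrays. Of these genes, Tbx21, Ifng and Il12rb2 were higher on all Th1 than on all Th17 arrays, and Cxcr3 overlapped. Il18r1 went the other way, with 7.77 to 8.45 on Th1 and 8.49 to 9.01 on Th17 arrays. For a background level, 15 measured genes of other organs averaged 5.56 to 5.72 on each array, with Apoa1 as high as 6.99 on 1 array. The next highest of them, Pomc, reached 6.62, so above that value the range rests on Apoa1 alone. B cell, NK, myeloid and erythroid markers averaged at most 6.05 on any array, and their lists held at most 1 gene above the median array value in a group. The 6 stromal markers averaged 6.58 to 6.63 in wild-type Th1 and 6.76 to 6.79 in Tet2-/- Th1 cells. They averaged 6.94 to 7.07 in wild-type and 7.32 to 7.41 in Tet2-/- Th17 cells. This mean separated both the cell types and the genotypes, with 4 of 6 above the median array value in Th1 and 5 of 6 in Th17 cells. Its genes did not move alike. Lum, Dcn and Pecam1 read higher on all Th17 than on all Th1 arrays, Sparc and Col1a1 lower, and Col1a2 overlapped. Both Tet2-/- arrays exceeded both wild-type arrays for Sparc, Pecam1 and Col1a2 in Th1 cells, and for Lum, Dcn, Pecam1 and Sparc in Th17 cells. The 3 CD8 T cell markers averaged 6.96 to 7.12 on Th1 and 6.45 to 6.52 on Th17 arrays. Of these, Eomes read 8.17 to 8.26 on Th1 and 6.69 to 7.06 on Th17 arrays, while Cd8a and Cd8b1 overlapped between the cell types. The 3 regulatory T cell markers averaged 6.63 to 6.65 in wild-type Th1 and 6.78 to 7.07 in Tet2-/- Th1 cells, and 6.73 to 6.74 and 6.60 to 6.66 in the corresponding Th17 groups. The Th17 arrays also differed among themselves in sex-linked transcripts: Xist read 5.20 (replicate 1) and 10.1 (replicate 2) in the wild-type group and 8.62 and 11.3 in the Tet2-/- group, against 4.83 to 5.11 on Th1 arrays. The mean of Eif2s3y, Kdm5d and Uty read 8.80, 7.82, 8.71 and 4.85 on the same Th17 arrays and 7.94 to 8.24 on Th1 arrays. The part of the stromal, CD8 and regulatory T cell markers in the differences between cell types and between genotypes was not tested. For sex-linked transcripts, 2 kinds of fit are given below. One leaves out wild-type Th17 replicate 1 and Tet2-/- Th17 replicate 2, and the other has the mean of Eif2s3y, Kdm5d and Uty as a covariate. The Th17 arrays left without that pair still read 10.1 and 8.62 for Xist, and the covariate does not include Xist. Neither fit can therefore tell sex-linked differences apart from those between Th17 and Th1 cells.

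**Figure D1:**
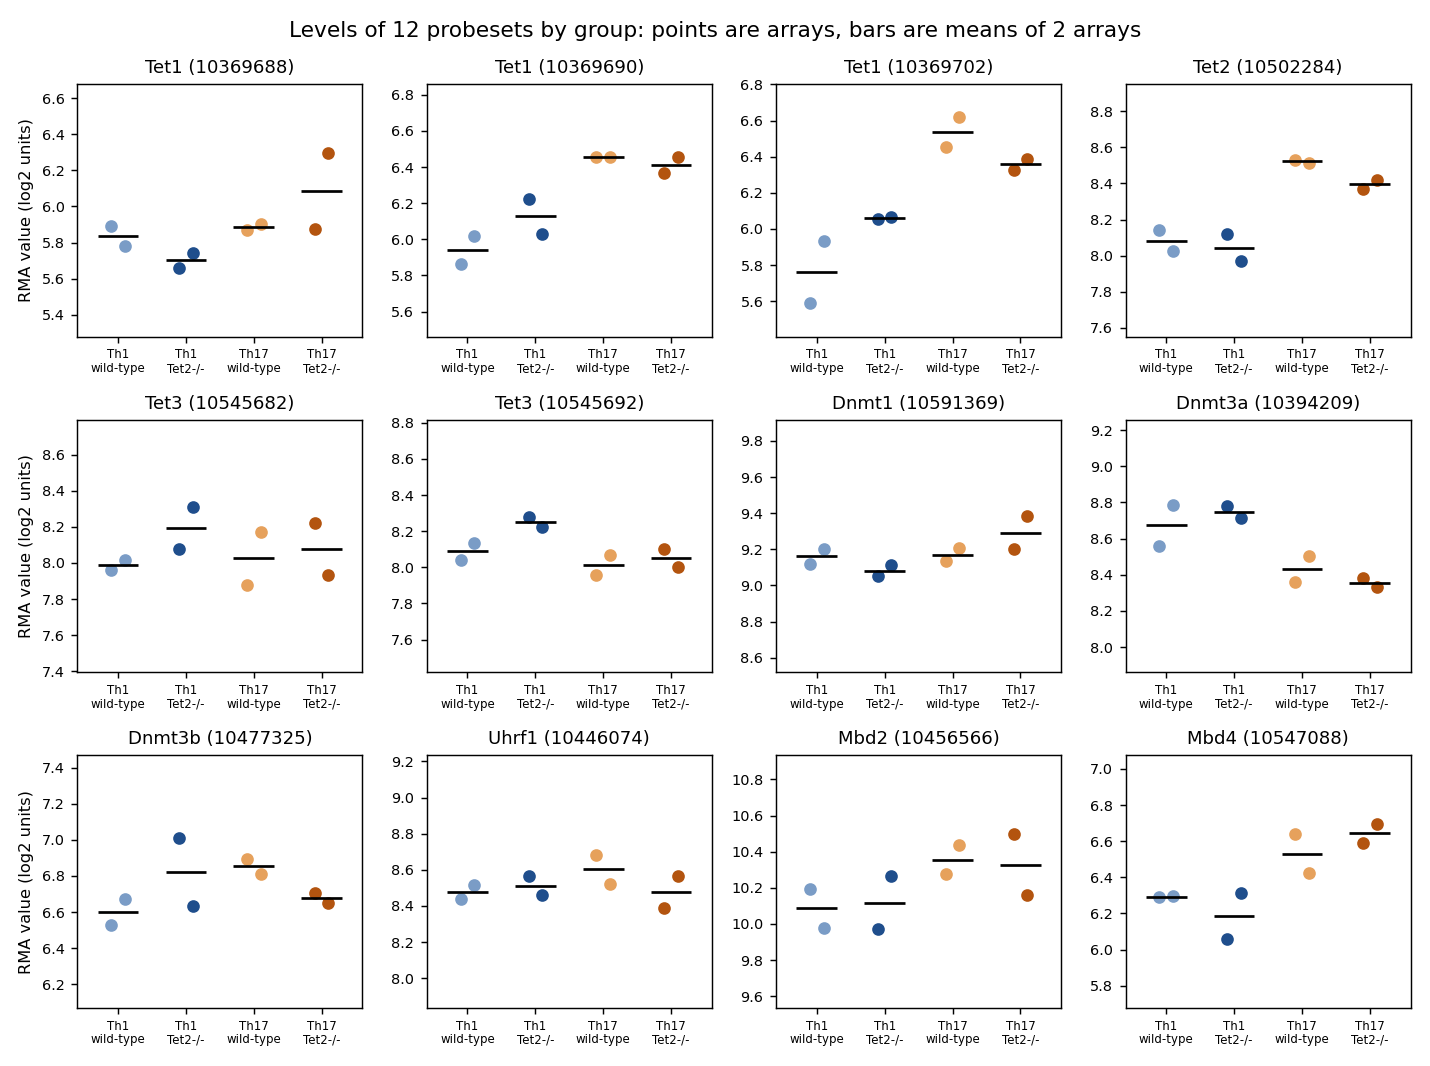
RMA values (log2 units, vertical axes) of the 12 probesets in the 4 groups. Points are single arrays (replicate 1 left, replicate 2 right), black bars are means of 2 arrays, and each panel spans 1.4 log2 units around its own data, so heights cannot be compared between panels. Tet2 and the Tet1 probesets 10369690 and 10369702 read higher on all 4 Th17 arrays than on all 4 Th1 arrays, Dnmt3a lower, and Uhrf1 and Tet3 overlapped.

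The first question was whether the loss of Tet2 went with other levels of its family members and of the rest of the machinery. In neither cell type did a member pass the test. In Th1 cells 0 of 12 probesets passed, beside 0.00918% (2 of 21789) of all probesets (limma, Benjamini-Hochberg adjusted p under 0.05), with 1 member and 1220 probesets (5.60%) at an unadjusted p under 0.05. In Th17 cells 0 of 12 passed, beside 0% of all probesets, with 0 members and 885 probesets (4.06%) at an unadjusted p under 0.05. The mean of the stromal markers was higher in Tet2-/- cells of both types, though not for each of its genes. That of the regulatory T cell markers was higher in Tet2-/- Th1 cells, where Nrp1 stood out on replicate 1. The part of either in these contrasts was not tested. The plot of genotype differences shows that all the intervals but 1 span 0.

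Tet2 itself, the gene whose loss defines the groups, read 8.14 and 8.03 in wild-type Th1 cells and 8.12 and 7.97 in Tet2-/- Th1 cells. The genotypes overlapped, with a difference of -0.04 (SE 0.117, confidence interval -0.29 to 0.22, adjusted p = 0.984 by limma). In Th17 cells it read 8.53 and 8.51 in wild-type and 8.37 and 8.42 in Tet2-/- cells. Here both Tet2-/- arrays lay below both wild-type arrays, by 0.13 on average (confidence interval -0.38 to 0.13, adjusted p = 1.00 by limma). The lower ends of these intervals correspond to 0.816 and 0.767 times the wild-type level. Its position relative to the deleted sequence is unknown, and the values cannot serve as a test of the genotypes.

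Tet1 was measured 3 times, with probesets that did not move alike. In Th1 cells probeset 10369702 read 5.59 and 5.93 in wild-type and 6.05 and 6.06 in Tet2-/- cells, a difference of 0.30 (confidence interval 0.02 to 0.58, adjusted p = 0.861). It was the member with the smallest unadjusted p, 0.0356 by limma's moderated test over 8 arrays fitted across all probesets. Probeset 10369690 read 5.86 and 6.02 against 6.22 and 6.03, a difference of 0.19 (confidence interval -0.06 to 0.43). Probeset 10369688 went the other way, from 5.89 and 5.78 to 5.66 and 5.74, a difference of -0.13 (confidence interval -0.43 to 0.16). In Th17 cells the signs were turned for each of the 3, with -0.18, -0.04 and 0.20 in the same order. All Tet1 readings lay between 5.59 and 6.62, within the range of the genes of other organs and near or under the array medians of 6.47 to 6.53, so its expression is not shown.

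Tet3, the remaining family member, read 7.96 and 8.02 in wild-type and 8.08 and 8.31 in Tet2-/- Th1 cells with probeset 10545682. Its second probeset, 10545692, read 8.04 and 8.13 against 8.28 and 8.22. With either probeset both Tet2-/- Th1 arrays were above both wild-type arrays, but the differences of 0.21 (confidence interval -0.11 to 0.52) and 0.16 (confidence interval -0.09 to 0.41) did not pass (adjusted p = 0.893 and 0.895 by limma). The upper ends allow a rise of 1.44-fold and 1.33-fold. In Th17 cells the 2 probesets differed by 0.05 and 0.04, with overlapping arrays.

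Among the methyltransferases, Dnmt1 read 9.12 and 9.20 in wild-type and 9.05 and 9.11 in Tet2-/- Th1 cells, a difference of -0.08 (confidence interval -0.34 to 0.19). In Th17 cells it read 9.13 and 9.21 against 9.20 and 9.39, a difference of 0.12 (confidence interval -0.14 to 0.39). Its partner Uhrf1 differed by 0.04 in Th1 cells and by -0.13 in Th17 cells, with overlapping arrays in both. Genes of DNA replication and S phase stood beside them in the same contrasts: of 19 measured, 0 passed in either cell type, 16 were below 0 in Th1 cells (median -0.11) and 15 above 0 in Th17 cells (median 0.08), against a median of 0.01 and 0.02 over all 19938 genes. Dnmt1 thus had the sign of that list in both cell types and Uhrf1 in neither, and whether replication bears on the 2 was not tested.

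Dnmt3a, a writer of new methylation, differed by 0.07 in Th1 and by -0.08 in Th17 cells, with overlapping arrays. Dnmt3b, the second writer, read 6.53 and 6.67 in wild-type and 7.01 and 6.63 in Tet2-/- Th1 cells, with overlapping arrays and a difference of 0.22, replicate 1 of the Tet2-/- cells being the high array. In Th17 cells Dnmt3b read 6.89 and 6.81 against 6.70 and 6.65, a difference of -0.18 (confidence interval -0.47 to 0.11). Mbd2, which binds methylated CpG and recruits a repressive complex, differed by 0.03 and -0.03. Mbd4, which repairs the mismatch left by deamination of methylcytosine, differed by -0.11 and 0.11. Mbd4 (6.06 to 6.70) lay wholly, and Dnmt3b (6.53 to 7.01) largely, within the range of the genes of other organs, so their expression above background is not shown either. For readings above 6.62 that range rests on Apoa1 alone.

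**Figure D2:**
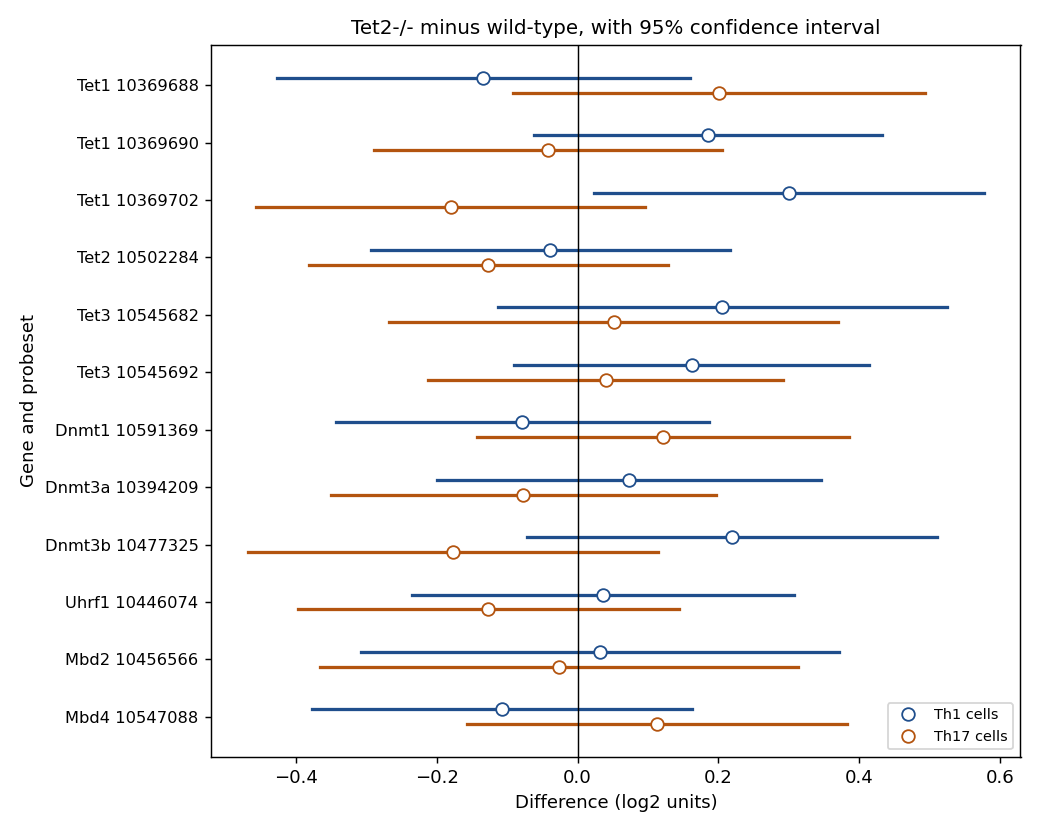
Difference between Tet2-/- and wild-type cells (log2 units, horizontal axis) for each probeset, in Th1 cells and in Th17 cells. Points are limma estimates from 2 arrays against 2, lines are 95% confidence intervals, and open points did not pass. All points lie between -0.18 and 0.30, and only the Th1 interval of Tet1 10369702 lies clear of 0.

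The arrays of the genotypes did not overlap for 6 of 12 probesets in Th1 cells, where 32.6% of all probesets did not, and for 3 of 12 in Th17 cells, where 33.0% did not. The difference between the genotype effects of Th17 and Th1 cells was tested directly, and 0 of 12 passed, beside 0% of all probesets (limma; 1 member and 960 probesets (4.41%) at an unadjusted p under 0.05). Tet1 10369702 had the largest such difference among members, -0.48 (SE 0.179, adjusted p = 0.998), and Dnmt3b the next, -0.40 (SE 0.189, adjusted p = 0.998). Averaged over both cell types, 0 of 12 passed and 0% of all probesets did (limma; 0 members and 1128 probesets (5.18%) at an unadjusted p under 0.05). These mean differences ran from -0.08 for Tet2 to 0.13 for Tet3 10545682. The lowest end of any interval was -0.26, for Tet2, and the highest was 0.35, for Tet3 10545682. As folds of the wild-type level, the intervals of the 12 probesets together spanned 0.833 to 1.28.

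The second question was how far the machinery differs between the lineages. In wild-type cells Tet2 and 2 of the 3 Tet1 probesets were higher in Th17 than in Th1 cells, and the Tet1 readings are not shown to exceed background. Of 12 probesets, 3 passed as higher, where 4.77% of all probesets did, and 0 passed as lower, where 2.92% did (limma, adjusted p under 0.05). In Tet2-/- cells Mbd4, also not shown to exceed background, was higher in Th17 cells: 1 of 12 probesets passed as higher, beside 6.63% of all, and 0 as lower, beside 3.35%. The median difference of the 12 probesets was 0.18 in wild-type and 0.21 in Tet2-/- cells, against -0.01 in both over all 21789 probesets. The 2 comparisons share no array. The arrays of the cell types did not overlap for 8 of 12 probesets in wild-type cells, where 51.7% of all probesets did not, and for 8 of 12 in Tet2-/- cells, where 56.4% did not.

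Tet2 was 1.35-fold higher in wild-type Th17 cells, with 8.53 and 8.51 against 8.14 and 8.03 in Th1 cells (difference 0.44, SE 0.117, confidence interval 0.18 to 0.69, adjusted p = 0.0415 by limma). Both Th17 arrays lay above both Th1 arrays. In Tet2-/- cells the same probeset read 8.37 and 8.42 against 8.12 and 7.97, again with no overlap, and the difference of 0.35 (confidence interval 0.09 to 0.60) did not pass (adjusted p = 0.0832). The wild-type call ended when any 1 of the 8 arrays was left out (adjusted p 0.0508 to 0.162), with the difference then at 0.38 to 0.49. It also ended without wild-type Th17 replicate 1 and Tet2-/- Th17 replicate 2 together (0.205), with a Y-linked covariate in the fit (0.073), with only the 4 wild-type arrays fitted (0.0955) and with the replicate block (0.0702).

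Tet1 10369702 was 1.72-fold higher in wild-type Th17 cells, with 6.46 and 6.62 against 5.59 and 5.93 in Th1 cells (difference 0.78, SE 0.127, adjusted p = 0.00313 by limma). It passed in all 16 alternatives that tested it, with an adjusted p of 0.0022 to 0.0449. Tet1 10369690 was 1.43-fold higher, with 6.45 and 6.46 against 5.86 and 6.02 (difference 0.51, SE 0.113, adjusted p = 0.0177). Its call ended without wild-type Th17 replicate 1 (0.0713) or 2 (0.102) or without wild-type Th1 replicate 1 (0.0966), and without the pair of Th17 arrays named above (0.105). Tet1 10369688 read 5.87 and 5.90 against 5.89 and 5.78, with overlapping arrays and a difference of 0.05 (confidence interval -0.24 to 0.34).

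In Tet2-/- cells the 3 Tet1 probesets differed by 0.38, 0.29 and 0.30, each with both Th17 arrays above both Th1 arrays and none passing (adjusted p 0.098 to 0.175). For 10369688 the 2 Tet2-/- Th17 arrays stood apart, at 5.87 and 6.30. That probeset passed without Tet2-/- Th17 replicate 1 (0.59, adjusted p = 0.032). Since the Tet1 values lie within the range of genes of other organs, a fold between them understates a change if part of the signal is background.

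Mbd4 read 6.59 and 6.70 in Tet2-/- Th17 cells against 6.06 and 6.31 in Tet2-/- Th1 cells (difference 0.46, SE 0.124, adjusted p = 0.0370 by limma). In wild-type cells it read 6.64 and 6.42 against 6.29 and 6.29, also without overlap, a difference of 0.24 (confidence interval -0.03 to 0.51, adjusted p = 0.269). The difference between these 2 effects, 0.22 (SE 0.175, adjusted p = 0.998), did not pass. The call in Tet2-/- cells ended without Tet2-/- Th17 replicate 1 (0.116) or 2 (0.185) or Tet2-/- Th1 replicate 1 (0.262), without the pair of Th17 arrays named above (0.198) and with the Y-linked covariate (0.0927).

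Dnmt3a had the opposite sign. It read 8.36 and 8.50 in wild-type Th17 against 8.56 and 8.79 in wild-type Th1 cells, a difference of -0.24 (confidence interval -0.51 to 0.03, adjusted p = 0.269). In Tet2-/- cells it read 8.38 and 8.33 against 8.78 and 8.71, a difference of -0.39 (confidence interval -0.67 to -0.12, adjusted p = 0.0720 by limma). In both genotypes the Th17 arrays lay below the Th1 arrays, and neither difference passed.

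The other members did not pass in either genotype, with adjusted p of 0.28 to 0.973. Dnmt1 differed by 0.01 and 0.21 and Uhrf1 by 0.13 and -0.04 (wild-type, then Tet2-/-), without overlap for Dnmt1 in Tet2-/- and for Uhrf1 in wild-type cells. Dnmt3b differed by 0.25 in wild-type, without overlap, and by -0.15 in Tet2-/- cells. Mbd2 differed by 0.27, without overlap, and by 0.21. Tet3 was the flattest of the Tet genes, with 0.04 and -0.12 for probeset 10545682 and -0.08 and -0.20 (the last without overlap) for 10545692, and the 4 confidence intervals together ran from -0.45 to 0.36.

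**Figure D3:**
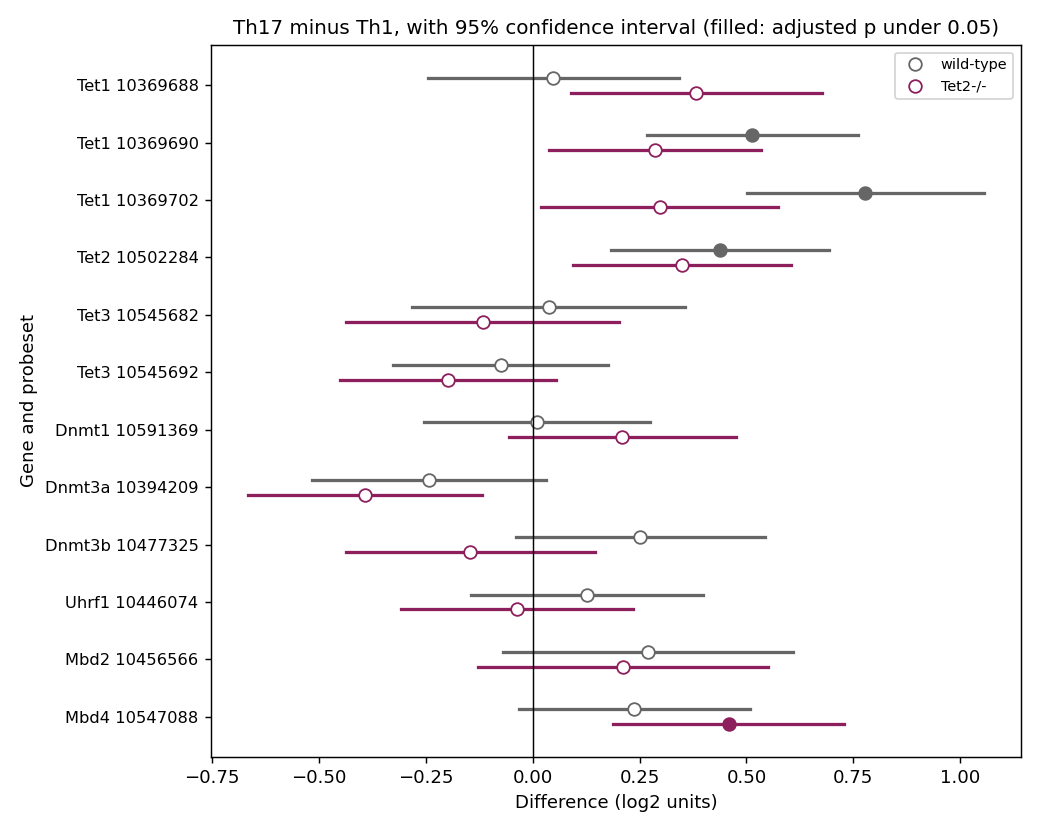
Difference between Th17 and Th1 cells (log2 units, horizontal axis) for each probeset, in wild-type and in Tet2-/- cells. Points are limma estimates from 2 arrays against 2, lines are 95% confidence intervals, and filled points passed at an adjusted p under 0.05. The 3 filled wild-type points are Tet1 10369690 (0.51), Tet1 10369702 (0.78) and Tet2 (0.44), and the filled Tet2-/- point is Mbd4 (0.46).

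Averaging the difference between cell types over both genotypes, a comparison added after the values were seen, sets 4 arrays against 4. In it 5 of 12 probesets passed, where 21.3% of all probesets did (limma). Tet2 was higher in Th17 cells by 0.39 (SE 0.0826, adjusted p = 0.0057). That mean takes in the Tet2-/- arrays, and the position of the probeset relative to the deleted sequence is unknown. Tet1 10369690 was higher by 0.40 (adjusted p = 0.00436), Tet1 10369702 by 0.54 (adjusted p = 0.00144) and Mbd4 by 0.35 (adjusted p = 0.0149). Dnmt3a was lower by 0.32 (difference -0.32, SE 0.0886, adjusted p = 0.0249). All 4 Th17 arrays lay on 1 side of all 4 Th1 arrays for these 5 of 12, and for 24.0% of all probesets. Dnmt3a did not pass without any 1 of Th17 wild-type replicate 1, Th17 Tet2-/- replicate 1 or 2, Th1 wild-type replicate 2 or Th1 Tet2-/- replicate 1 (adjusted p 0.0635 to 0.0808), nor with the Y-linked covariate (0.0531). Mbd4 did not pass without Th17 wild-type replicate 1, Th17 Tet2-/- replicate 2 or Th1 Tet2-/- replicate 1 (0.0537 to 0.0665). Without that pair of Th17 arrays, Tet1 10369690 and 10369702 passed and Tet2 (0.0635), Mbd4 (0.148) and Dnmt3a (0.190) did not.

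Ordered by level within a probeset, Tet2 ran from Tet2-/- Th1 to wild-type Th1, Tet2-/- Th17 and wild-type Th17 cells, where the 2 Th1 groups overlapped and the other neighbours did not. Tet1 10369702 ran from wild-type Th1 to Tet2-/- Th1, Tet2-/- Th17 and wild-type Th17 cells with no overlap between neighbours. Tet1 10369690 had the same order, with overlapping Th17 groups. Mbd4 ran from Tet2-/- Th1 to wild-type Th1, wild-type Th17 and Tet2-/- Th17 cells, and Dnmt3a from Tet2-/- Th17 to wild-type Th17, wild-type Th1 and Tet2-/- Th1 cells. In both the groups of a cell type overlapped and the cell types did not. For Dnmt3b, Uhrf1, Mbd2 and Tet3 10545682 every pair of neighbours overlapped.

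Genes with profiles most like 3 of the members over the 8 arrays were named by Pearson correlation, as a description of points that share their arrays and groups. Tet2 was most like Bnip3 (0.983), Itga6 (0.980), Ccr4 (0.978), Rapgef5 (0.973) and Nfx1 (0.972), of 3095 probesets at least as variable and at or above the array median. Ccr4, a chemokine receptor of Th2, Th17 and regulatory T cells, had group means of 9.70 and 9.63 in wild-type and Tet2-/- Th1 cells and 11.3 and 10.8 in Th17 cells, and the integrin Itga6 had 7.56, 7.58, 9.10 and 8.57. Dnmt1 was most like Slc25a10 (0.961), Ncapd3 (0.958), Knstrn (0.956), Kif20a (0.954) and Cdc23 (0.952), of 9282 probesets. The last 4 encode proteins of mitosis: a condensin subunit, a spindle protein, a kinesin and a subunit of the anaphase-promoting complex. Dnmt3a was most like Slc3a2 (0.972), Wsb2 (0.965), Ccnd2 (0.964), Sik1 (0.963) and Map2k3 (0.961), of 4361 probesets, where Slc3a2 is a subunit of amino acid transporters and Ccnd2 is cyclin D2.

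The wider machinery was described by 7 gene lists, with 1 probeset per gene. Between the genotypes 0 genes of any list passed in Th1 or in Th17 cells (limma, over all probesets). Between Th17 and Th1 cells of the wild type, genes of base excision repair, which completes demethylation after Tet oxidation, were above 0 for 11 of 12 (median 0.10), and 2 rose: the repair polymerase Polb by 0.53 (adjusted p = 0.0348) and the strand-break sensor Parp1 by 0.42 (adjusted p = 0.0426). In Tet2-/- cells 9 of 12 were above 0 (median 0.12) and the glycosylase Neil3 rose by 0.64 (adjusted p = 0.0487). There Polb differed by 0.44 (adjusted p = 0.0617) and Parp1 by 0.28 (adjusted p = 0.156). In wild-type cells the group means of Neil3 were 7.53 (Th1) and 7.59 (Th17). Over all 19938 genes the median difference was -0.01 in both genotypes, and 47.2% of genes in wild-type and 48.8% in Tet2-/- cells were above 0. Of all probesets, 4.77% passed as higher and 2.92% as lower in wild-type cells, and 6.63% and 3.35% in Tet2-/- cells. The counts of this list and of those below stand beside these shares.

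Of 6 measured Gadd45 and deaminase genes, 2 fell in each genotype. Gadd45g, a stress-induced gene linked to demethylation and to interferon-γ production, fell by 1.06 in wild-type (adjusted p = 0.00106) and fell by 1.36 in Tet2-/- cells (adjusted p = 0.000151). Gadd45b fell by 0.69 (adjusted p = 0.0062) and fell by 0.78 (adjusted p = 0.00219). Gadd45a differed by 0.16 and 0.22 and did not pass.

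Of 9 measured cofactor and partner genes of Tet enzymes, 1 rose in wild-type and 2 in Tet2-/- cells. Ogt, the transferase that binds Tet2 and Tet3, was higher by 0.62 in each genotype (adjusted p = 0.0121 and 0.00937). Idh1, which makes the co-substrate of Tet enzymes, rose by 0.64 in Tet2-/- cells (adjusted p = 0.0268) and differed by 0.14 in wild-type cells. Its group means of 5.82 to 6.46 lie within the range of genes of other organs, so its expression above background is not shown. Of 9 measured genes that supply the methyl donor, Mtr, the methionine synthase, rose by 0.56 (adjusted p = 0.0313) and its reductase Mtrr by 0.51 (adjusted p = 0.0374) in wild-type cells, and Mat2b, a subunit of S-adenosylmethionine synthetase, by 0.52 in Tet2-/- cells (adjusted p = 0.0313). In the other genotype Mtr differed by 0.40 (Tet2-/-, adjusted p = 0.0944 by limma) and Mat2b by 0.41 (wild-type, adjusted p = 0.0891). Mtrr had group means of 7.98 and 8.27 in Tet2-/- Th1 and Th17 cells. Of the 9, 8 were above 0 in wild-type cells (median 0.27) and 5 in Tet2-/- cells (median 0.30), where Mthfd2 read lowest with a difference of -0.36.

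Among 14 measured partners of the methyltransferases, the histone methyltransferase Ehmt1 rose by 0.46 in wild-type cells (adjusted p = 0.0326), and 0 passed in Tet2-/- cells, where Ehmt1 differed by 0.23. The list named methyl-CpG readers also holds relatives and complex subunits, such as Mbd6 and Chd4, that are not taken here to bind methylated CpG themselves. Of its 10 measured genes, Mbd6 rose by 0.62 in wild-type cells (adjusted p = 0.00712). In Tet2-/- cells 0 passed, and Mbd6 differed by 0.23. Of the 19 S phase genes, Ccne1, cyclin E1, fell in both genotypes: it fell by 0.67 (adjusted p = 0.0134) in wild-type and fell by 0.52 (adjusted p = 0.0370) in Tet2-/- cells. The other 18 did not pass in either, and 15 of 19 were below 0 in wild-type but 6 of 19 in Tet2-/- cells.

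**Figure D4:**
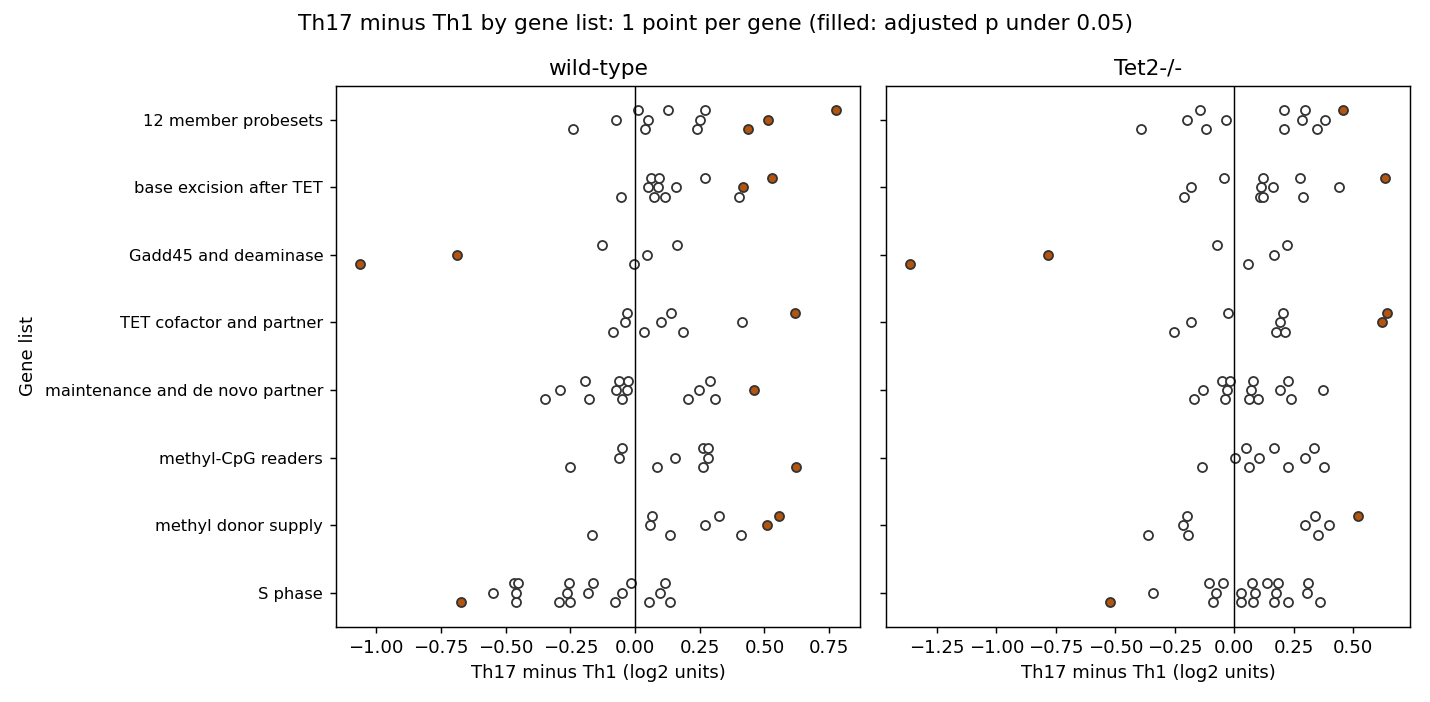
Difference between Th17 and Th1 cells (log2 units, horizontal axes, scaled separately) for the 12 member probesets and 7 gene lists (rows), in wild-type (left) and Tet2-/- cells (right). Each point is a gene, or a probeset in the top row, and filled points passed at an adjusted p under 0.05. The row of methyl-CpG readers also holds their relatives and complex subunits. Gadd45g (-1.06 and -1.36) and Gadd45b (-0.69 and -0.78) lie farthest to the left, and S phase genes lie mostly left of 0 in wild-type and mostly right of 0 in Tet2-/- cells.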

How the data were processed

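Per the submitters' processing notes, the authors made the deposited values with RMA and Partek, as 1 log2 value per probeset and array. The range of the values gave the log base, and versions, filters and the genome build are not given in the sources used here. RMA puts all arrays on 1 distribution, so a shift common to most genes cannot be seen, and the number of arrays limits the precision. Of 35556 probesets 21789 had 1 symbol, 1621 several and 12146 none listed, and all single-symbol probesets were tested, with no filter on low values. In R 4.3.3, limma 3.58.1 estimated the 4 group means over the 8 arrays (lmFit, eBayes with an intensity trend; 4 residual and 7.82 prior degrees of freedom). Tests were two-sided, with Benjamini-Hochberg adjustment over the 21789 probesets, and SE and intervals come from this fit. The fit was run on simulated data with independent normal noise and changes added to wild-type Th17 arrays. Its pass condition concerned changes larger than any member difference, so it does not test power at the differences reported here. Named were all member probesets, up to 4 list genes per comparison by smallest p, and the 5 most correlated probesets for Tet2, Dnmt1 and Dnmt3a, leaving out predicted genes and clones. Lists used the probeset with the highest mean per gene, and the members' genes were left out of them. Members and lists were chosen with earlier results of these data known. Promoter windows come from RefSeq for GRCm38.p6. Alternatives changed the moderation, the arrays, the probesets tested, the scaling, the block and the Y-linked covariate.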

Additional observations from a re-analysis of the deposited data

Results flagged for a closer look

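Tet1 10369702 differed in opposite directions in the 2 cell types: both Tet2-/- arrays read above both wild-type arrays in Th1 cells and below both in Th17 cells. The difference between the effects was -0.48 (SE 0.179), with an unadjusted p of 0.0202 and an adjusted p of 0.998 by limma, so it did not pass. The gene's other probesets gave -0.23 (10369690) and 0.33 (10369688). The genotypes did not overlap for 32.6% of all probesets in Th1 and 33.0% in Th17 cells, and the share with opposite directions was not counted. All Tet1 readings lay within the range of the genes of other organs, so they are not shown to exceed background.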

How the results depend on the processing

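Between the genotypes the count of members called was 0 in every alternative run for Th1 cells, Th17 cells, their difference and their mean. Of 1427 member differences recomputed over all comparisons, 1387 kept their side of the threshold, 38 lost a call and 2 gained one. Signs turned in 63, all of them differences whose interval spans 0 in the reported fit. Of the 3 wild-type calls between Th17 and Th1 cells, 1 was left with all 35556 probesets tested, 1 with dim probesets left out (which removes the Tet1 probesets and Mbd4 from the test), 1 without the 2 Th17 arrays of extreme Y-linked level and 1 to 2 when single arrays were left out. The 1 call in Tet2-/- cells became 0 with all probesets, with dim probesets left out, with the Y-linked covariate and without those 2 arrays, and 0 to 1 with single arrays left out. The 5 calls of the mean comparison became 3 with all probesets, 2 with dim probesets left out, 2 without those 2 arrays and 3 to 5 with single arrays left out.

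Over all probesets, the 1675 wild-type calls became 622 with all probesets tested, 835 without the 2 arrays and 646 to 1539 with single arrays left out. The 2174 calls in Tet2-/- cells became 1064, 1015 and 857 to 2464, and the 4635 of the mean comparison 4101, 2832 and 2796 to 4703. The 2 calls for genotype in Th1 cells ranged from 0 to 2. Without Th17 Tet2-/- replicate 1, 4 were called for genotype in Th17 cells, 2 for the difference and 4 for the mean genotype effect.

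Same-numbered arrays did not deviate together (correlations of their deviations -0.195 to 0.055 over the 6 pairs of groups), so the replicate numbers were not taken as a pairing. With the replicate block, 2 of the 3 wild-type member calls, the 1 in Tet2-/- cells and the 5 of the mean comparison passed, and 1400, 1871 and 4192 probesets in all. For the wild-type groups, same-numbered arrays deviated in opposite directions (-0.195), and a crossed block was added after seeing this. It called 3525 probesets and 3 members. Since the crossing was chosen from the same values, these counts cannot serve as a check of the calls. Centring each array on its median moved no group mean by more than 0.0161. For the median probeset the SE between genotypes was 0.126. A Th1 genotype difference of 0.30 (Tet1 10369702) had an adjusted p of 0.861, so the counts of 0 do not exclude differences of that size.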
